A study of Oryctolagus cuniculus with 4 samples.

Results

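The cytosolic ribosomal protein genes of rabbit blastocysts were examined. Member probes were those whose array description named a protein L or S of the cytosolic ribosome, with mitochondrial proteins, kinases and pseudogenes left out. This gave 68 of 43603 probes, for 20 genes. The large (60S) subunit was represented by 45 probes for 13 genes and the small (40S) subunit by 23 probes for 7 genes. Probes of a gene mostly overlapped, so that the 68 probes covered only 23 separate stretches of transcript, and probes of a gene are not independent measurements. A call is an adjusted p under 0.05 from limma over all probes tested.

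Groups of New Zealand White rabbit embryos of different origin were compared, both as blastocysts aged 6 days and both as pools of embryos. Parthenotes came from oocytes activated electrically and then with cycloheximide and 6-DMAP, an inhibitor of protein synthesis and one of protein kinases, and they were grown in the oviducts and uteri of recipient does. Their counterparts were fertilised in vivo in inseminated does. There were 4 pools a group and 4 Agilent arrays, each holding a parthenote pool labelled with Cy3 and a fertilised pool labelled with Cy5. No array had the dyes exchanged, and therefore dye and group cannot be told apart in any value below. Every ratio is the log2 ratio of parthenote over fertilised on an array. In these pools of whole embryos, fewer cells of a type and less RNA per cell cannot be told apart.

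Ribosomal proteins fold around the ribosomal RNAs to make the subunits that translate mRNA, with the small subunit decoding the message and the large subunit joining amino acids. Their mRNAs are among the most abundant in growing cells, and in the embryo the maternal stock of ribosomes is supplemented once the embryonic genome is active. Several members have close paralogues, and processed copies are common in mammalian genomes, so that a probe may also capture RNA from a near-identical copy.

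The names in the array annotation did not always match the current rabbit gene table. The 10 probes described as L17 carry an accession that this table names RPL23. The 5 probes described as L24-like belong to RSL24D1, a factor of large subunit maturation rather than a protein of the finished ribosome. The probes for RPL7 and RPS26 are described as L7-like and S26-like, and the 5 probes of RPL7L1 and 3 of RPL26L1 are for paralogues.

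The sequences on which the main results rest are shown as printed on the array, from 5′ to 3′. Capitals mark the bases shared by all probes of that stretch, and sequences in lower case throughout have no overlapping partner shown. Coordinates are those of the array annotation, whose genome build is not given in the sources used here. The upstream RPL23 probe spans chr19:40300689-40300846 on the minus strand, which is longer than the probe and so crosses an exon junction, and the downstream one chr19:40300617-40300676.
RPL23 upstream: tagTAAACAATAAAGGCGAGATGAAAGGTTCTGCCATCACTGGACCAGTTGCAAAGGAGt
RPL23 downstream: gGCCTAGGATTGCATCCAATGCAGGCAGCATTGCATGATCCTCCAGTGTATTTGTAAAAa
RPL7L1: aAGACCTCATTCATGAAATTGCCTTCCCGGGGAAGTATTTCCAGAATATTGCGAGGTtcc
RPL36: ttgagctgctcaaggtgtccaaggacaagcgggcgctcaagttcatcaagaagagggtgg
RPS13: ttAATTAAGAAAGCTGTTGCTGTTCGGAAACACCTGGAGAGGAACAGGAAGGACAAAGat
RPS26 bright: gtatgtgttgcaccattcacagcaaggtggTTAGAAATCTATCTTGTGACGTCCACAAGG
RPS26 dim: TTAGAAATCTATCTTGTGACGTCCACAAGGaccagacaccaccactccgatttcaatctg
RPL22L1: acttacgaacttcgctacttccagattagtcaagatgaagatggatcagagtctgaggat
RPS27L: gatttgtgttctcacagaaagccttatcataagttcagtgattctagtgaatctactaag

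In the deposited ratios, which are dye-normalized, most member probes differed little between parthenotes and fertilised embryos. After normexp and median centring without loess, however, 65 of the 68 member probes were below 0. The medians there were -1.12 for the large and -1.07 for the small subunit. Of the 65 member probes with signal well over background for both groups on each array, 62 had a mean deposited ratio within 0.5 of equality on the log2 scale. The median size of their ratio was 0.12, against 0.20 for the 24137 probes of the array that met the same condition and 0.15 for the 484 probes with a mean log2 signal of 16 or more, the class that holds most members. Among the 45 large subunit probes, 2 were called higher and 15 lower in parthenotes, where 9.53% of all 43595 probes tested were called higher and 11.1% lower. Among the 23 small subunit probes, 5 were called higher and 0 lower by limma, and 0 were lower by the methods' t-test. At an unadjusted p under 0.05, 4 were lower, among them the RPS26 probe A_04_P035639, which was at background. Of the 15 large subunit probes that fell, 9 were for RPL23, 5 for RPL7L1 and 1 for RPL35, so the count rests on 3 genes. After normexp background correction and loess, the large subunit had 0 probes called higher and 21 lower, and the small subunit 1 higher and 4 lower. In that fit 14.9% of all probes were called, 7.01% higher and 7.93% lower. Of the 22 members called in the deposited ratios, 15 kept call and direction there and 5 changed sign.

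The median ratio of the large subunit probes was -0.09, -0.05, -0.08 and -0.05 on arrays 1 to 4. That of the small subunit probes was 0.16, 0.09, 0.02 and 0.09. Among the member probes the small subunit median lay above the large subunit one on each array, an order that the further genes described below did not share. However, with the brightest probe of each gene the medians became -0.05 over 13 large subunit genes and 0.19 over 7 small subunit genes, and without RSL24D1, RPL7L1 and RPL26L1 the large subunit probes had a median of -0.02 and the 10 large subunit genes left one of 0.02. The small subunit median was above 0 in the deposited ratios but turned to -0.05 after normexp background correction and loess, where the 484 brightest probes of the array, with a mean log2 signal of 16 or more, moved together from -0.04 to -0.23.

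**Figure D1:**
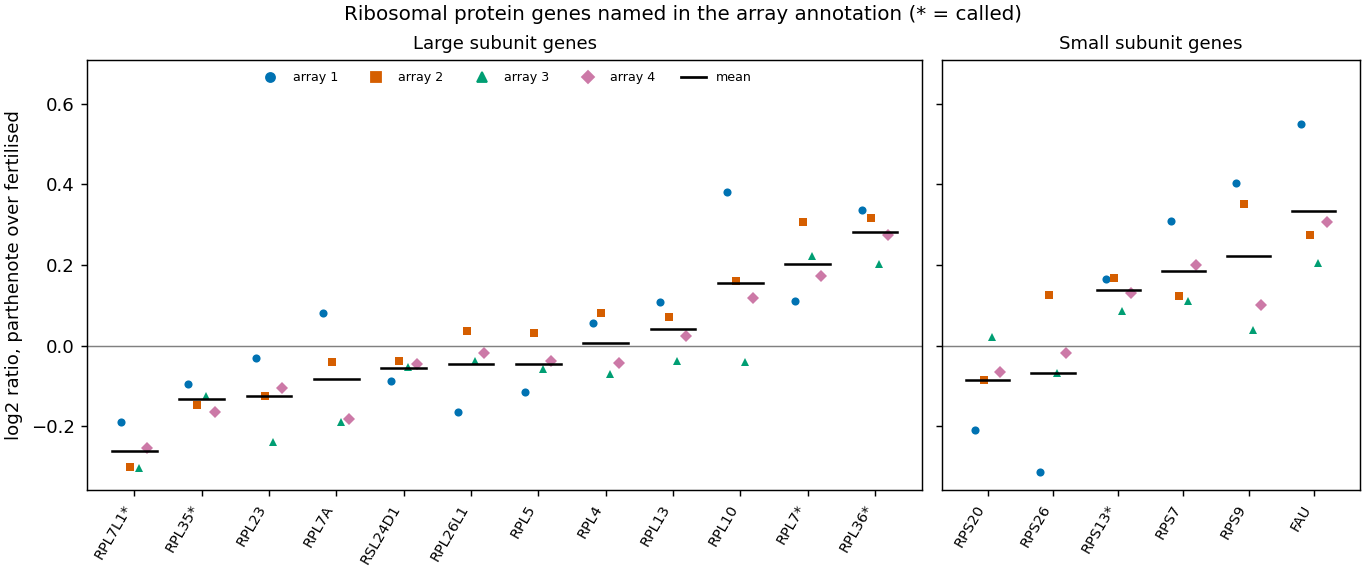
Log2 ratio of parthenote over fertilised (vertical axis) on each of the 4 arrays for the brightest probe of 18 of the 20 ribosomal protein genes, large subunit left and small subunit right, with the mean as a bar and called genes starred. Means run from -0.26 for RPL7L1 to 0.33 for FAU, and RPL10 spans 0.38 on array 1 to -0.04 on array 3.

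RPL23, a large subunit protein that also binds the p53 regulator MDM2, gave the lowest ratios among the members that were well above background. Its downstream probe A_04_P010708 had log2 signals of 16.61, 16.68, 16.66 and 16.54 in the parthenote pools and 17.22, 17.33, 17.27 and 17.16 in the fertilised pools. All parthenote pools were below all fertilised pools, and the groups did not overlap. The ratio was -0.62 (SE 0.01, n = 4 arrays, limma adjusted p = 0.0036), that is 1.54-fold lower signal in parthenotes. The 3 downstream probes had ratios between -0.62 and -0.51, and all were called. The 7 upstream probes had ratios between -0.31 and -0.12, and 6 of them were called. The brightest of them, A_04_P004629, was the exception (-0.12, adjusted p = 0.126), and after normexp and loess it was called too (-0.38, adjusted p = 0.006).

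The stretches of RPL23 therefore differed in the size of the ratio. Averaged over its probes, the upstream stretch had ratios of -0.12, -0.26, -0.31 and -0.22 on arrays 1 to 4, and the downstream stretch -0.61, -0.61, -0.56 and -0.53. The downstream ratio was lower on each array, by a mean of 0.35, and no value of one stretch overlapped with the other. Over the upstream stretch, probes shifted by single bases ranged from -0.31 to -0.12, although the neighbours A_04_P004628 and A_04_P004627 both gave -0.22. A pair of RPL23 probes of identical sequence, A_04_P004626 and A_04_P010709, gave -0.31 and -0.26, and another pair, A_04_P004627 and A_04_P010710, gave -0.22 and -0.21.

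Probes for separate stretches of a transcript were available for 8 ribosomal protein genes when those named through the gene table were included. The downstream stretch had the lower ratio on all 4 arrays for RPL23, RPL24, RPL7 and RPS25, and the higher one on all 4 arrays for RPL22L1. With 4 arrays, the exact permutation test on such a difference cannot go below p = 0.125 (two-sided). RPS25, a small subunit protein, changed sign along its transcript. Its 5 upstream probes averaged 0.25 (SD 0.09, n = 4 arrays) and 3 of them were called higher, whereas its 5 downstream probes averaged -0.08 (SD 0.05) and 1 was called lower. RPL24, of the large subunit, averaged 0.06 upstream (SD 0.04) and -0.23 (SD 0.09) at its single downstream probe. Of its 5 upstream probes 2 were called higher and 1 lower. RPL24 and RPS25 thus cannot be given a direction as genes.

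**Figure D2:**
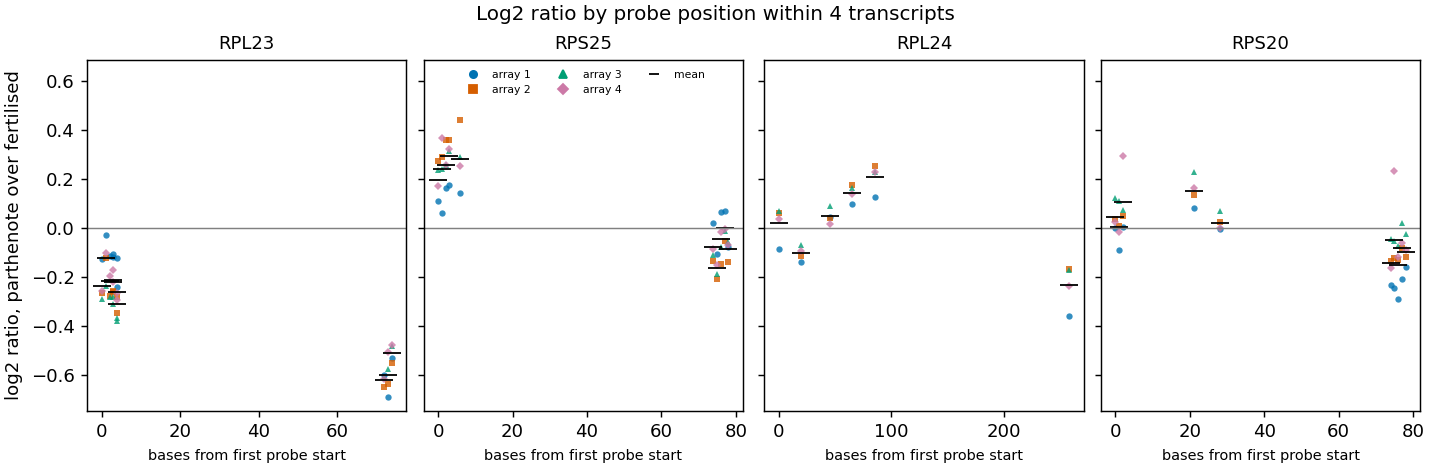
Log2 ratio of parthenote over fertilised (vertical axis) against the start of each probe, in bases from the first probe of the transcript (horizontal axis), for RPL23, RPS25, RPL24 and RPS20 on 4 arrays, with the mean as a dash. In RPL23 the upstream probes average -0.23 and the downstream ones -0.58, and in RPS25 the averages are 0.25 and -0.08.

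RPL7L1, a paralogue of RPL7 that takes part in large subunit maturation, was lower in parthenotes. The brightest of its 5 probes had ratios of -0.19, -0.30, -0.30 and -0.25 on the 4 arrays, with a mean of -0.26 (SE 0.03, limma adjusted p = 0.016). All 5 probes were called, with means from -0.32 to -0.26. RPL35, of the large subunit, was lower by a small amount, with ratios of -0.10, -0.15, -0.12 and -0.16 and a mean of -0.13 (SE 0.01, adjusted p = 0.019).

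RPL36, of the large subunit, was higher in parthenotes in the deposited ratios, but after normexp and loess it was no longer called (0.17, adjusted p = 0.058) and with median centring it turned to -0.86. Its log2 signals were 15.89, 16.44, 16.30 and 16.24 in the parthenote pools and 15.56, 16.12, 16.09 and 15.97 in the fertilised pools. The groups overlapped in signal and both channels of array 1 were dimmer, but the parthenote pool was the brighter one on each array. The ratios were 0.34, 0.32, 0.20 and 0.27, with a mean of 0.28 (SE 0.03, limma adjusted p = 0.016). RPL7 was called higher at a dim probe (0.20, adjusted p = 0.047) but not after normexp and loess (0.14, adjusted p = 0.060), while its second probe gave -0.25 and was not called (adjusted p = 0.157).

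Among the small subunit genes, RPS13 was higher at 4 of its 5 probes. Its brightest probe had ratios of 0.17, 0.17, 0.09 and 0.13 and a mean of 0.14 (SE 0.02, limma adjusted p = 0.026), but the mean was -0.03 after normexp and loess. RPS7, which like RPL23 can bind MDM2, had 1 of 5 probes called (0.18, adjusted p = 0.038), and its probes ranged from 0.05 to 0.19. FAU, which encodes a ubiquitin-like protein fused to S30, had the highest mean among the members, with ratios of 0.55, 0.28, 0.21 and 0.31 and a mean of 0.33 (SE 0.07). Its parthenote and fertilised signals did not overlap, yet it was not called (adjusted p = 0.056). After normexp and loess it was called at a like size (0.32, adjusted p = 0.021), but after median centring it turned to -0.60. A second FAU probe gave 0.37 (adjusted p = 0.076). RPS9 at 0.22 was not called either (adjusted p = 0.165).

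Several other members were not called in the deposited ratios. RPL10, which is added late in maturation of the large subunit, had 10 overlapping probes with means from 0.02 to 0.15. Its brightest probe read 0.38 on array 1 and 0.16, -0.04 and 0.12 on the other arrays, so array 1 was the highest. RPL5, which carries 5S RNA into the large subunit, had probes between -0.11 and 0.12. RPL4 had a mean of 0.01, RPL26L1 of -0.05, RPL13 of 0.04 and RPL7A of -0.08. After normexp and loess, however, the brightest probes of RPL7A (-0.34, adjusted p = 0.017), RPL5 (-0.27, adjusted p = 0.023) and RPS20 (-0.35, adjusted p = 0.015) were called lower. RPS20 had downstream probes from -0.15 to -0.05, and 5 further probes of the same transcript from 0.00 to 0.15, of which A_04_P004992 was called higher (0.15, adjusted p = 0.047). RSL24D1 had 5 probes between -0.09 and -0.05, with an adjusted p of 0.052 at the brightest.

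The RPS26-like probes disagreed in signal, not only in ratio. A_04_P035641 had a mean log2 signal of 15.1, whereas A_04_P035637, which shares 30 of its 60 bases, had 2.98 and was not well above background in any pool. The other 2 dim probes had mean log2 signals of 2.64 and 2.59. The ratios of the 3 dim probes are at background and carry no direction. The 2 bright probes gave -0.07 and -0.09, neither of them called, with array 1 the lowest at -0.31 and -0.39. The sequences above show that the shared bases lie at the 3′ end of the bright probe and at the 5′ end of the dim one.

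Brightness set the members apart from most of the array. Of the 68 probes, 46 had a mean log2 signal of 16 or more, a class of 484 probes in which they made up 9.5%. Most of the further ribosomal protein probes described below were in this class too, so it is not a comparison free of the gene family. In this class 14.7% of the probes were called higher and 22.5% lower. Of the member probes well above background, 75.4% took their signal from the low-gain scan in both channels on all arrays, against 3.8% of all such probes. The scanner software scales that scan up where the main scan is too bright. No member spot was marked as saturated. The part of the scan in the ratios was not tested.

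**Figure D3:**
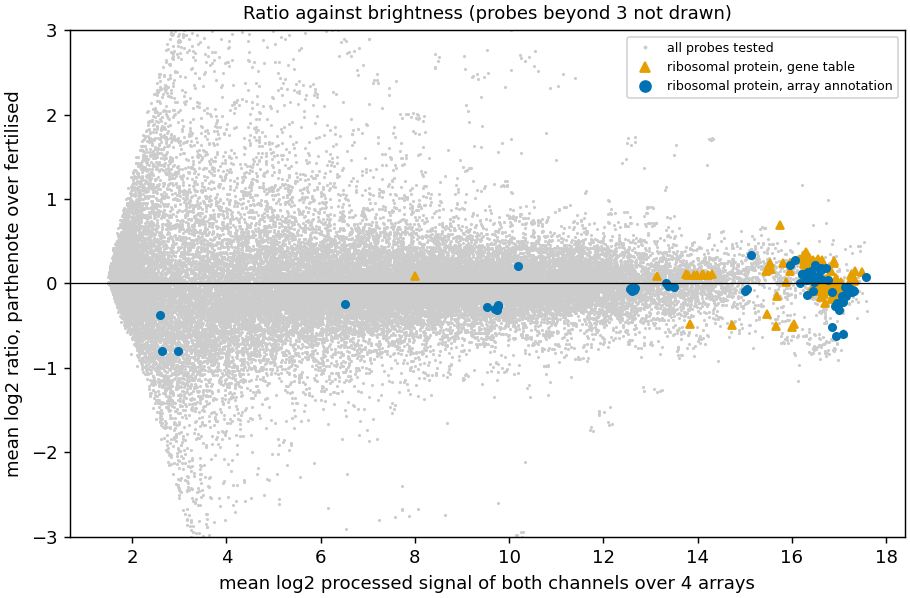
Mean log2 ratio of parthenote over fertilised (vertical axis) against the mean log2 processed signal of both channels over 4 arrays (horizontal axis) for all probes tested (grey), the 68 member probes (circles) and the ribosomal protein probes named through the gene table (triangles). Of the members, 46 lie at a log2 signal of 16 or more, and the 3 RPS26 probes at the far left are at background.

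Further ribosomal protein probes had no such words in their array description and were named through identifiers in the rabbit gene table. They numbered 94, for 26 genes, of which FAU, RPS9 and RPS20 were also members. With the brightest probe of each, 7 of 16 large subunit genes were called higher and 2 lower, and 2 of 10 small subunit genes higher and 1 lower. The median ratio was 0.10 for these large and 0.07 for these small subunit genes, whereas among the members the small subunit median was the higher. On arrays 1 and 2 the large subunit median of these further genes was the higher, and on arrays 3 and 4 the small one. The 2 lower genes of the large subunit were RPL22L1 and RPL24, but of the other RPL24 probes 2 were called higher and 1 lower. Over the 9753 named genes of the array, by their brightest probes, 24.1% were called, 11.8% higher and 12.2% lower. After normexp and median centring every one of the genes called higher here turned negative.

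Paralogues held both ends of the range in this set. RPS27L, a p53-inducible paralogue of RPS27, had log2 signals of 16.13, 16.08, 16.10 and 16.03 in the parthenote pools and 15.44, 15.44, 15.39 and 15.30 in the fertilised pools. The groups did not overlap, and the ratio was 0.69 (SE 0.02, limma adjusted p = 0.0043), or 1.61-fold, although it was -0.39 after median centring. RPL22L1, a paralogue of RPL22, was lower, with ratios of -0.36, -0.50, -0.54 and -0.50 and a mean of -0.48 (SE 0.04, adjusted p = 0.012). All 6 RPL22L1 probes were called lower, with means from -0.52 to -0.36. RPL36AL was higher (0.15, adjusted p = 0.015) together with its parent RPL36A (0.25, adjusted p = 0.03), though neither was called after normexp and loess (adjusted p = 0.068 and 0.17).

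RPLP0 and RPLP1, of the stalk of the large subunit, which recruits elongation factors, were called higher in the deposited ratios, but after normexp and loess RPLP0 was at 0.06 and not called, and RPLP1 turned to -0.15. RPLP0 had ratios of 0.26, 0.28, 0.29 and 0.26 and a mean of 0.27 (SE 0.01, limma adjusted p = 0.0045), and RPLP1 a mean of 0.14 (SE 0.02, adjusted p = 0.028). RPL30 (0.26), RPL31 (0.23) and RPL14 (0.25) were also called higher. After normexp and loess the brightest probes of these 3 genes were not called (adjusted p of 0.059 to 0.413). In the deposited ratios RPL30 was called at 6 of 6 probes and RPL31 at 5 of 5. RPS18 was called lower (-0.15, adjusted p = 0.0073). RPL26, of the large subunit, gave -0.09 at its brightest probe and was not called (adjusted p = 0.137), although 1 of its 6 probes was called higher (0.24), and after normexp and loess the brightest was called lower (-0.33, adjusted p = 0.010).

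**Figure D4:**
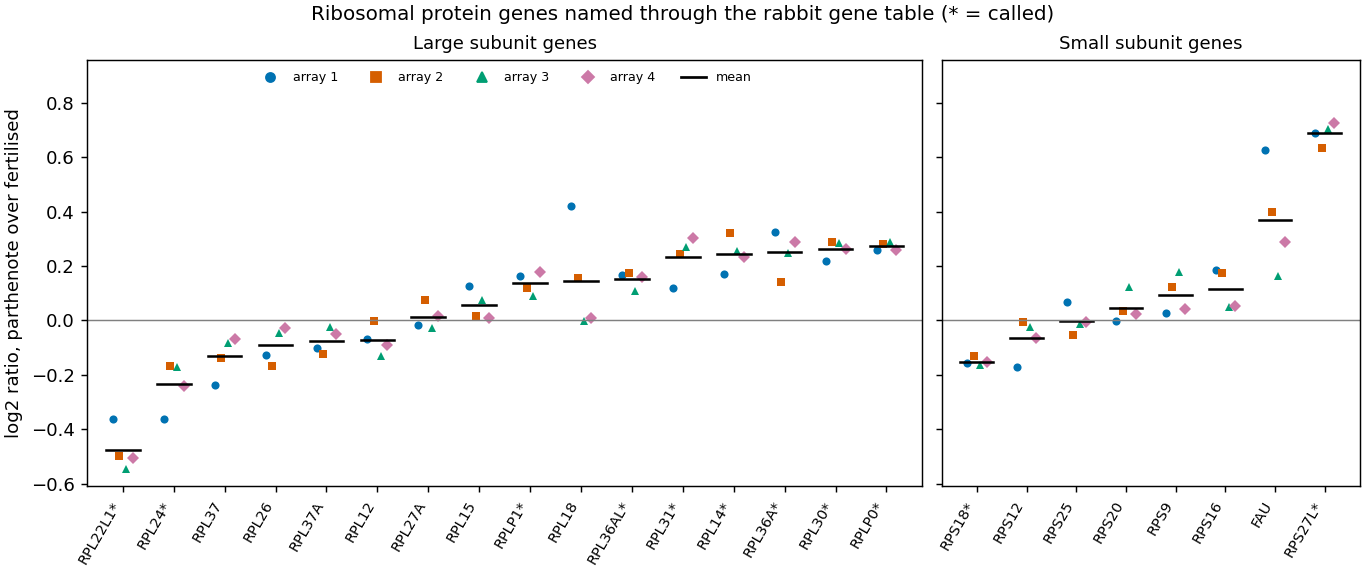
Log2 ratio of parthenote over fertilised (vertical axis) on 4 arrays for the brightest probe of 24 of the 26 ribosomal protein genes named through the gene table, with the mean as a bar and called genes starred. RPL22L1 at -0.48 and RPS27L at 0.69 lie outside the other genes, whose means run from -0.23 to 0.37.

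Many calls were lost with fewer arrays. This held over all probes too, whose counts without single arrays are given in the last section, and is not particular to the members. Of the 22 called member probes, 15 kept their call and direction without array 1, 4 without array 2, 7 without array 3 and 4 without array 4. The 3 that kept it in all 4 cases were A_04_P010708 and A_04_P010706 of RPL23 and A_04_P062507 of RPL7L1. Without single arrays the adjusted p of the brightest probe reached 0.092 for RPL36, 0.087 for RPL35 and 0.117 for RPS13. Of the 16 genes called at the brightest probe in either set and followed by name, RPLP0 and RPS27L kept the call whichever array was left out, and RPL22L1 kept it only without array 1 (adjusted p up to 0.076 otherwise).

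Many genes that build ribosomes were lower in parthenotes. Of 72 listed ribosome biogenesis genes 51 were measured, and 21 were called lower and 1 higher, where 12.2% and 11.8% of named genes were. Their median ratio was -0.18, against 0 over all named genes, and 29 were below 0 on all 4 arrays. UTP18, of the small subunit processome, had ratios of -0.37, -0.56, -0.52 and -0.60 and a mean of -0.51 (SE 0.05, limma adjusted p = 0.015). NOP14, of the same processome, had a mean of -0.50 (SE 0.10, adjusted p = 0.047), and RRN3, the initiation factor of RNA polymerase I, of -0.48 (SE 0.07, adjusted p = 0.032). NOLC1 (-0.46), NIP7 (-0.47), HEATR1 (-0.38) and WDR12 (-0.30) were lower on every array. POLR1C, a subunit shared by RNA polymerases I and III, was the gene called higher (0.22, adjusted p = 0.021). After normexp with median centring 0 genes of the list were higher and 50 lower. That setting also moved the median of the class of brightest probes described above to -1.32, against 0.00 for all probes. The count of 50 is therefore given as a value only, and the part of brightness in it was not tested. Without array 4 only 1 gene was called lower in the deposited ratios. Without arrays 1, 2 and 3 the count was 13, 3 and 5, while the median stayed between -0.20 and -0.16. The counts over all probes, after median centring and without single arrays, are given in the last section.

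**Figure D5:**
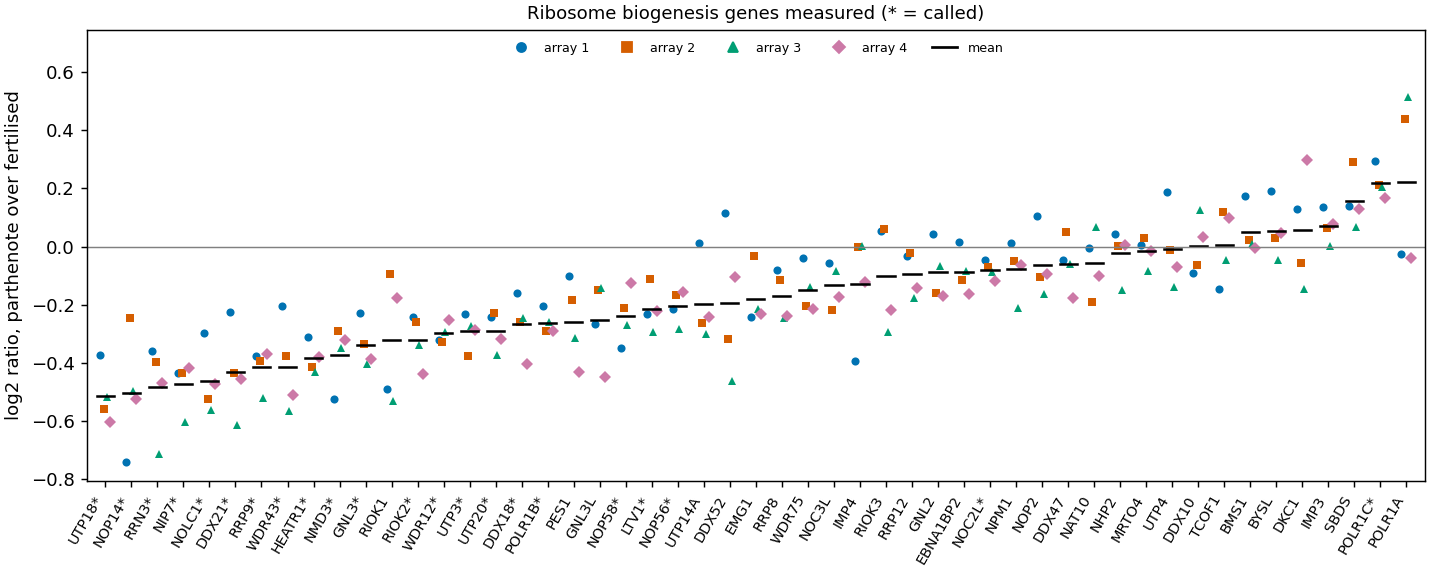
Log2 ratio of parthenote over fertilised (vertical axis) on 4 arrays for the brightest probe of 51 ribosome biogenesis genes, ordered by the mean (bar), with called genes starred. The genes called lower reach -0.51 at UTP18, and 42 of the 51 means lie below 0.

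Translation factors were called at rates near those of all named genes, of which 11.8% were higher and 12.2% lower, and these counts are given as values only. Of 37 initiation factor genes 26 were measured, with 4 called higher and 4 lower (15.4% each) and a median of -0.02. EIF3E (0.29) and EIF3I (0.28), subunits of the scaffold eIF3, were the highest, and EIF4B (-0.38), a cofactor of the eIF4A helicase, and EIF2S3 (-0.35), a subunit of eIF2, the lowest. Of 17 genes listed for elongation and release 13 were measured and 2 were called, both higher (15.4%). They were EEF2K (0.34), a kinase of an elongation factor rather than a factor itself, and EEF1G (0.19). Of 28 genes of mTOR signalling and translational control 20 were measured, with 3 higher (15%) and 2 lower (10%). EIF2AK2 (0.55) and EIF2AK1 (0.22), kinases that phosphorylate eIF2, were the highest, and DDIT4 (-0.51) and TSC1 (-0.48), which restrain mTOR complex 1, the lowest. The 116 mitochondrial ribosomal protein probes had a median of -0.06, with 8 called higher (6.9%) and 25 lower (21.6%), beside 9.53% and 11.1% of all probes.

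Markers of other cells moved with the groups. Over all named genes 11.8% were called higher and 12.2% lower, the shares that go beside the counts of every marker list here and below. Of 14 genes of motile ciliated cells 8 were measured and 4 were called higher in parthenotes. Their summed processed signal was 2102, 1078, 3057 and 1999 in the parthenote pools and 467, 358, 486 and 387 in the fertilised pools, with CAPS the brightest gene and FOXJ1 not well above background in any pool. Of 10 genes of oviduct and uterine secretory epithelium 6 were measured and 3 were called higher, among them OVGP1 (3.87), the oviductal glycoprotein. Their summed signal was 12009, 16531, 34791 and 21077 in parthenote pools and 8309, 8911, 10606 and 7453 in fertilised pools, with WFDC2 the brightest and ESR1 not well above background in any pool. These summed signals did not overlap between the groups, and their part in the ribosomal protein ratios was not tested.

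The summed signals of erythroid and leukocyte genes did not overlap between the groups either, and nor did those of the trophectoderm and epiblast genes. Of 5 erythroid genes 3 were measured and 2 were called higher, with summed signals of 31933, 13204, 26318 and 18617 in parthenote pools and 6326, 6997, 11360 and 4292 in fertilised pools, and HBA the brightest. The third, SLC4A1, had ratios below 0 on all 4 arrays but was well above background in 1 fertilised pool and in no parthenote pool. Of 8 leukocyte genes 6 were measured and 2 were called higher, with CD68 the brightest, sums of 233 to 260 in parthenote and 132 to 165 in fertilised pools, and PTPRC and CD3E not well above background in any pool. Of 9 stromal and smooth muscle genes 8 were measured and 0 called by limma or the methods' t-test, with 2 at an unadjusted p under 0.05; their sums were 275 to 414 in parthenote and 227 to 294 in fertilised pools, COL1A2 was the brightest, and COL1A1, ACTA2 and MYH11 were not well above background in any pool. Of the embryo's own lineages, 5 of 9 trophectoderm genes were measured, with KRT8 higher (0.58) and GATA2 lower (-0.64). Their summed signals were 22093 to 30755 in parthenote and 18229 to 20218 in fertilised pools. Further, 2 of 7 epiblast genes were measured, with POU5F1 higher (0.21), and 3 of 7 primitive endoderm genes, with 1 lower. The epiblast sums were 11426 to 14157 in parthenote and 9865 to 11053 in fertilised pools, while the primitive endoderm sums overlapped. All of the lineage markers that were measured were well above background in every pool of both groups. Most of the listed epiblast and primitive endoderm genes were not measured, and which cells gave these signals was not tested.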

How the data were processed

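RNA from 4 parthenote pools (Cy3) and 4 fertilised pools (Cy5) was hybridised on 4 two-colour Agilent rabbit arrays of one slide, scanned together, which leaves no batch to fit. Per the labels and the methods, RNA was amplified with T7 polymerase, and the authors extracted the values with Agilent Feature Extraction 10.10.1.1. The deposited log10 ratios (Cy5 over Cy3, background-subtracted and dye-normalized) were turned to log2 of parthenote over fertilised. The deposited intensity columns gave the processed signals, the brightness and the alternatives. Each array held 43803 non-control spots, of which 25805 to 26339 were well above background for parthenotes and 27508 to 27835 for fertilised embryos. The number of arrays limits the precision.

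Control spots were left out, spots marked non-uniform or as population outliers (26 to 48 an array) were set to missing, spots of a probe were averaged, and probes with values on at least 3 arrays were kept. Limma 3.58.1 in R 4.3.3 tested each mean ratio against 0 with Benjamini-Hochberg adjustment over 43595 probes, and 8996 were called (20.6%). Each array pairs a pool of each group, so the array is the block. Deviations of the channels of an array from their group means correlated at 0.39 to 0.48. The labels say only that pools are biological replicates. The fit was tested on simulated data of 43527 probes. It recovered 32 of the 50 probes given a 5-fold change, 18 of the 50 given a 2-fold change and 5 of the 50 given a 1.2-fold change. The share of probes changed there was far below the share called in the data, so these counts do not give the recovery in the data.

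Probes were named through the descriptions, or through accessions and gene identifiers in RefSeq's rabbit table (mOryCun1.1, names only), and 21715 probes stayed unnamed. A gene is represented by its brightest probe. Genes named were the 5 highest and 5 lowest of each subunit, fixed ribosomal proteins and paralogues, and the 2 called genes furthest from 0 in each direction of the translation lists. Fixed names without a named probe, such as RPS6 and RPL39, were not analysed here, and a few measured genes are counted but not reported by name. Other genes named were chosen after their values were seen. Members and gene lists were chosen with earlier results of these data known. Alternatives covered background correction, loess, median centring, brightness, saturated and marked spots, dim probes, the test, the array block and leaving out each array.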

Additional observations from a re-analysis of the deposited data

How the results depend on the processing

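Over all probes, the number called was 31610 after normexp and median centring, 21399 with the ratio of processed signals (65% of them higher, against 46.2% in the deposited ratios), 4435 with the methods' t-test, 16358 with no replicate block, where the 8 channels enter as separate samples (68% higher), and 1239 to 5736 without single arrays. The cause was not tested. The ratio of processed signals moved the median of all probes by 0.08 and left the members' medians as they were.

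For the large subunit, 45 probes were called after median centring (all lower), 10 with the methods' t-test and 4 to 14 without single arrays. For the small subunit, the count was 20 after median centring (all lower), 3 after testing only probes bright enough in 1 channel or more, 1 with the methods' t-test, 1 with no replicate block and 0 to 3 without single arrays. The median ratio of the large subunit probes was -0.14 after normexp and loess, -0.14 with the repaired background and -1.12 after median centring. That of the small subunit was -0.047, -0.059 and -1.07, and the median over member genes, 0.02 in the deposited ratios, was -0.070, -0.074 and -1.07. Median centring without loess moved the probes with a log2 signal of 16 or more to -1.32, against 0.00 for all probes, and the members moved with them. Alternatives chosen after seeing the data also moved the medians, the large one to -0.020 without RSL24D1, RPL7L1 and RPL26L1 and the small one to 0.19 with 1 probe a gene. Ribosome biogenesis genes called lower, likewise added, numbered 50 after median centring, 10 with the methods' t-test and 1 to 13 without single arrays.

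Of 39 genes followed by name, normexp and loess gave 11 a call in the same direction, took it from 8 and counted 3 as reversed. With the repaired background these were 12, 5 and 5. Not every change of sign was counted as reversed. After normexp and loess RPL13 (-0.14), RPL4 (-0.11) and RPL26L1 (0.01) also changed sign, but were called neither there nor in the deposited ratios. The genes counted as reversed were as follows. After normexp and loess, RPS13 was -0.030, RPL27A -0.17 and RPLP1 -0.15. With the repaired background, RPL13 was -0.15, RPS13 -0.041, RPL15 -0.15, RPL27A -0.19 and RPLP1 -0.17. After median centring, FAU was -0.60, RPL10 -1.06, RPL13 -1.23, RPL36 -0.86, RPL4 -1.15, RPL7 -0.40, RPS13 -1.07, RPS7 -1.08, RPS9 -1.002, RPL14 -0.83, RPL15 -1.21, RPL18 -1.08, RPL27A -1.27, RPL30 -0.91, RPL31 -1.001, RPL36A -0.95, RPL36AL -0.83, RPLP0 -1.04, RPLP1 -1.31, RPS16 -0.68 and RPS27L -0.39. The mean over both RPL7 probes was -0.023. The value table, the saturated spots and the marked spots changed no call among the genes followed by name.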
